A study of Mus musculus with 6 samples.

Results

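MHC class II molecules display peptides taken up from outside the cell to CD4+ T cells. The 8 genes described here encode the class II chains H2-Aa, H2-Ab1 and H2-Eb1, the invariant chain Cd74, the peptide editor subunits H2-DMa and H2-DMb1, the protease Ctss and the transcriptional co-activator Ciita. They were looked up by symbol among the 19445 loci of the gene table, and 6 of the 8 had a row of their own. Cd74 and H2-DMb1 were listed only in rows that also carry another symbol (Mir5107 and H2-DMb2), and these 2 rows are counted apart below.

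The study asked what raised Hlx, a homeobox transcription factor, does to subcutaneous inguinal white fat (iWAT). RNA-Seq was run on iWAT of 3 Hlx transgenic mice (TG) and 3 littermate controls (WT), labelled as male and 12 weeks old. In TG mice Hlx is driven by the aP2 (Fabp4) promoter, and the paper found the transgene in brown and white fat but not in other tissues. Which cells of iWAT express it cannot be read from whole tissue. Founders on a C57BL/6 and SJL background had been backcrossed to C57BL/6 for at least 3 generations. The controls carry no transgene, and no mouse received a treatment.

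Hlx was 96.2 ± 15.3 FPKM (SD, n = 3) in TG mice and 7.45 ± 0.637 FPKM in WT mice (log2 fold change 3.51, limma adjusted p = 0.000106), where FPKM is the read density scaled to transcript length and library size. Against the label male, Xist was 20.2 to 33.6 FPKM in all 6 mice and all 28 loci of chromosome Y were at 0. The FPKM columns summed to between 466059 and 542096, and the read depth is unknown. In all, 2 libraries stood apart in values that touch the results. Transgenic mouse 2 had the highest skeletal muscle transcripts (Acta1 at 187 FPKM against 2.36 to 39.5 in the other 5 mice), and wild-type mouse 3 had the highest mean level of the B cell list. Of the adipocyte markers, Fabp4 was the most abundant, at 19297 to 29363 FPKM.

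Class II genes are expressed mainly by professional antigen-presenting cells, which are B cells, dendritic cells and macrophages. White fat holds such cells among its fat cells, and inguinal fat surrounds a lymph node. In the endoplasmic reticulum the α and β chains assemble on the invariant chain, which blocks the groove and directs the complex to endosomes. There proteases including cathepsin S trim the invariant chain to a short peptide, H2-DM exchanges that peptide for antigen, and H2-O modulates H2-DM. Ciita does not bind DNA itself: it is recruited to class II promoters by RFX, CREB and NF-Y proteins, which bind the X and Y boxes.

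The promoters of several class II genes share those boxes. A stretch is shown for each member with a Y box core, TGATTGG, in the RefSeq table (GRCm38.p6, the build mm10 of the deposited loci). The windows lie upstream of the annotated starts and are printed on the gene's strand, 5′ to 3′. Capitals mark TGATTGG, the core of the Y box, and, where it precedes the Y box, GCAAC, a core of the X box. H2-Aa lies at chr17:34287861-34287918 (minus strand), H2-Eb1 at chr17:34305761-34305818, H2-DMb1 at chr17:34153083-34153140 and its neighbour H2-DMb2 at chr17:34145112-34145169 (plus strand). H2-Oa (chr17:34092289-34092346), H2-Ob (chr17:34238801-34238858) and H2-Eb2 (chr17:34325528-34325585), class II loci that are not among the 8 genes, are shown for comparison on the plus strand.
H2-Aa: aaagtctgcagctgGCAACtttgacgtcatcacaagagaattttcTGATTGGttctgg
H2-Eb1: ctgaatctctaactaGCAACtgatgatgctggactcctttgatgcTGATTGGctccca
H2-DMb1: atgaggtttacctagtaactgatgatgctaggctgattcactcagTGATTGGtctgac
H2-DMb2: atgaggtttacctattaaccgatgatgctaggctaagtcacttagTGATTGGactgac
H2-Oa: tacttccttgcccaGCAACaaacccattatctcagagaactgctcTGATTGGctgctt
H2-Ob: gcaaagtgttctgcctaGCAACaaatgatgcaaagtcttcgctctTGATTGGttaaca
H2-Eb2: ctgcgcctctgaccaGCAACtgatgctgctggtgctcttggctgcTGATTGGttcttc

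The 7 stretches were chosen for holding TGATTGG and placed on it, so its presence in them is not a result. Its first base lay 45 to 102 bases before the annotated start. GCAAC preceded it in H2-Aa, H2-Eb1, H2-Oa, H2-Ob and H2-Eb2, with 23 to 26 bases between the cores. Searched on both strands, TGATTGG was found in 7.82% of the 32851 promoter windows of 300 bases in the table, and GCAAC in 35.2%. GCAAC followed on the same strand by TGATTGG at most 40 bases later was found in 0.353% of the windows, which belong to 106 genes. Of the 49 tested loci with that arrangement, 3 were called lower in TG mice (6.12%), beside 7% of the 8432 tested loci that have a promoter in the table. The window of Ctss held neither core, and the H2-DMa windows in the table, at starts outside the deposited locus, held no TGATTGG. H2-Ab1, Ciita and Cd74 had no entry. These matches describe letters only, and binding was not measured.

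The 8 genes had lower FPKM in TG than in WT iWAT, with all 3 TG mice below all 3 WT mice for each of them. Mean FPKM in TG mice was 33.0% (H2-Aa) to 51.9% (Ciita) below that in WT mice. Of the 6 genes with a row of their own, 4 passed the limma test across all loci (H2-Ab1, H2-Eb1, H2-DMa and Ctss; adjusted p under 0.05), and the rows of Cd74 and H2-DMb1 also passed, which makes 6 of 8. Among the 11692 loci tested, 7.03% were called lower, and in 20.1% all TG mice lay below all WT mice. The median log2 fold change on the log2(FPKM + 1) scale was -0.73 over the 6 genes and -0.76 with the 2 shared rows, against -0.01 over all loci tested. With 3 mice against 3, a two-sided exact permutation test of 1 gene cannot go below p = 0.1, which each of the 8 genes reached. Whether fewer class II-positive cells or less RNA per cell lies behind a lower level cannot be told apart in whole tissue.

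**Figure D1:**
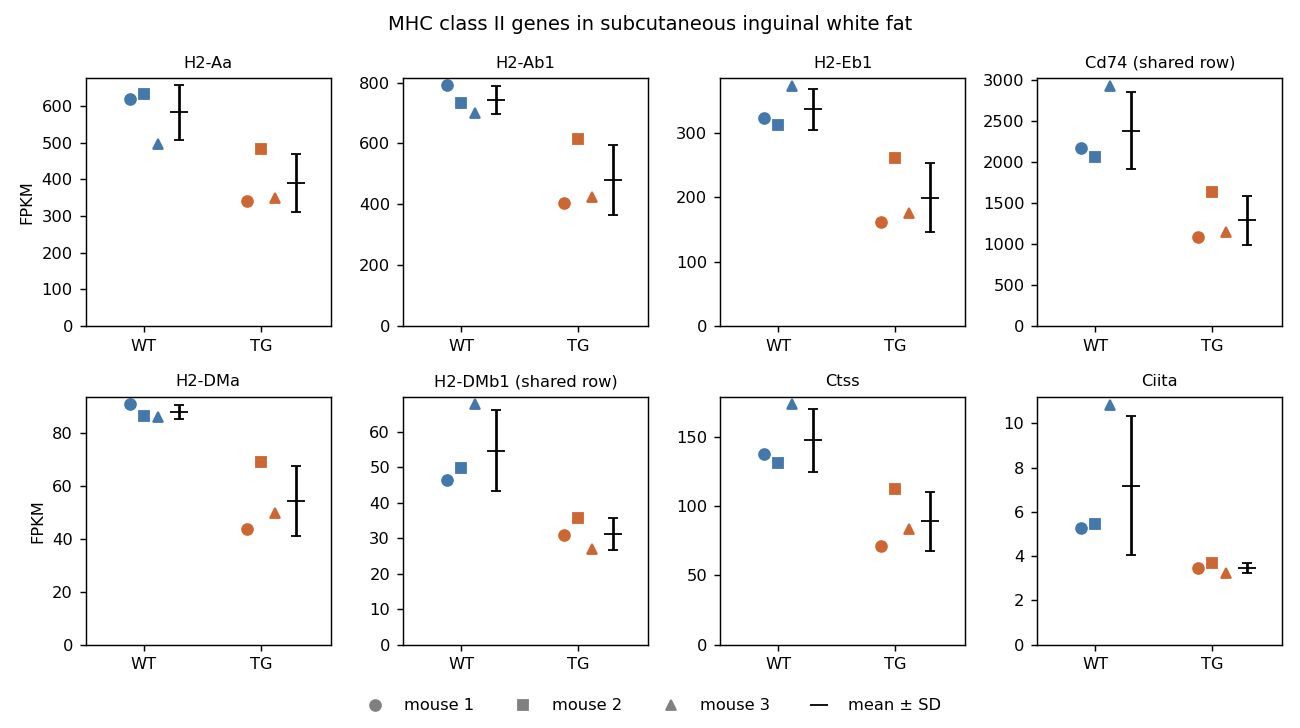
FPKM of the 8 class II genes in each mouse (y axes start at 0 and differ between panels; shapes give the mouse number, bars the mean ± SD of 3 mice). In every panel the TG points lie below the WT points, transgenic mouse 2 is the highest TG mouse, and wild-type mouse 3 is the highest WT mouse in 5 of the 8 panels.

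The chains that form the peptide groove were among the abundant transcripts of iWAT. H2-Aa, the α chain of the I-A molecule (chr17:34282750-34287771), was 341, 482 and 349 FPKM in TG mice 1 to 3 and 620, 633 and 497 FPKM in WT mice 1 to 3. The highest TG value, 482, came close to the lowest WT value, 497, and the log2 fold change of -0.59 ± 0.17 (SE) did not pass the test (limma adjusted p = 0.0581).

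H2-Ab1, the β chain of I-A (chr17:34263119-34270159), was 405, 613 and 423 FPKM in TG mice and 792, 734 and 699.9 FPKM in WT mice. It fell by 0.65 ± 0.18 on the log2 scale (limma adjusted p = 0.0454). H2-Eb1, the β chain of the I-E molecule (chr17:34305866-34316674), was 162, 261 and 175 FPKM in TG mice and 323, 312 and 373 FPKM in WT mice, a log2 fold change of -0.78 ± 0.19 (limma adjusted p = 0.0315). Unlike the I-A chains, H2-Eb1 was highest in wild-type mouse 3. The I-E α chain was listed as a pseudogene, H2-Ea-ps, at 0 in 4 of the 6 mice and at 0.131 FPKM at most.

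Cd74, the invariant chain, is a chaperone for the class II chains and was the most abundant of the 8 genes. Its row, shared with the microRNA Mir5107 that lies within the gene, was 1083, 1629 and 1147 FPKM in TG mice and 2163, 2060.3 and 2919 FPKM in WT mice. It fell by 0.89 ± 0.22 on the log2 scale (limma adjusted p = 0.0342).

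H2-DMa and H2-DMb1 form the H2-DM editor. H2-DMa (chr17:34135371-34139429) was 43.7, 68.8 and 49.8 FPKM in TG mice and 91.0, 86.4 and 86.1 FPKM in WT mice, and fell by 0.71 ± 0.16 on the log2 scale (limma adjusted p = 0.0249). Its WT values spanned only 86.1 to 91.0 FPKM, the smallest SD of the 8 genes in that genotype. The merged locus of H2-DMb1 and H2-DMb2 (chr17:34143377-34160229) was 30.8, 35.7 and 27.0 FPKM in TG mice and 46.5, 49.7 and 67.8 FPKM in WT mice, a log2 fold change of -0.78 ± 0.16 (limma adjusted p = 0.0198). The 2 β subunit genes cannot be separated in this row.

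Ctss, the cysteine protease cathepsin S that cleaves the invariant chain in antigen-presenting cells (chr3:95526785-95556403), was 71.2, 112 and 83.5 FPKM in TG mice and 138, 131 and 174 FPKM in WT mice. The fall was 0.74 ± 0.19 on the log2 scale (limma adjusted p = 0.0352). Ciita, the co-activator on which class II transcription depends (chr16:10480071-10543248), was the least abundant of the 8, at 3.46, 3.67 and 3.24 FPKM in TG mice and 5.28, 5.46 and 10.8 FPKM in WT mice. Wild-type mouse 3 stood above the other WT mice, which were close to each other. The log2 fold change of Ciita was -0.81 ± 0.24 (limma adjusted p = 0.0552), and -0.52 without that mouse (adjusted p = 0.0313).

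By mean FPKM, which is per length, the order in WT mice was Cd74, H2-Ab1, H2-Aa, H2-Eb1, Ctss, H2-DMa, the H2-DMb1 row and Ciita, and no 2 neighbours in it overlapped over the 3 mice. The order of the means was the same in TG mice. There H2-Ab1 (480.3 ± 115 FPKM) and H2-Aa (391 ± 79.4 FPKM) overlapped, while the other neighbours did not. Within TG mice, mouse 2 was the highest for 8 of the 8 genes.

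Leaving out 1 mouse at a time kept all 8 log2 fold changes below 0, but changed the calls. Without transgenic mouse 2, 5 of the 6 genes with a row of their own were called lower. Without wild-type mouse 1, wild-type mouse 2, transgenic mouse 1 or transgenic mouse 3 none was called, although all 6 had an unadjusted limma p under 0.05 in each of these fits, and without wild-type mouse 3 Ciita was the 1 gene called. With transgenic mouse 2 and wild-type mouse 3 both left out, 5 of the 6 genes were called and the median of the 6 was -0.87. With no filter on low values, which adds loci near 0 to the table, H2-DMa was the 1 gene called among the 6, and the H2-DMb1 row was also called.

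The other genes of the pathway were read from 5 lists, which together gave 33 tested loci besides the 8. Of these, 4 were called lower and 0 higher (7.03% and 11.6% of all loci), 26 had a log2 fold change below 0, and the median was -0.26. The calls in each of the 5 lists below are to be read beside these shares. At an unadjusted limma p under 0.05, 16 were lower. The share of all loci at that threshold was not counted, so the unadjusted counts of the lists have no background beside them.

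The other class II loci and editors followed the direction of the members without passing the test. H2-Oa, a subunit of the H2-DM modulator H2-O, was 17.6, 22.8 and 16.9 FPKM in TG mice and 23.7, 29.3 and 38.2 FPKM in WT mice (log2 fold change -0.63, limma adjusted p = 0.0576). Its partner H2-Ob stood at -0.40 (adjusted p = 0.0749), and H2-Eb2, another E β locus, one of -0.54 (adjusted p = 0.0685). In all 3 every TG mouse lay below every WT mouse, which also held for 20.1% of all loci tested.

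Proteins that prepare antigen in endosomes did not move one way. Of 8 tested, Ctsc, a dipeptidyl peptidase that activates granule proteases, fell by 0.63 on the log2 scale, from 42.6 ± 2.86 to 27.7 ± 6.43 FPKM (limma adjusted p = 0.0349). Ctsh (log2 fold change -0.63, adjusted p = 0.0812) and the thiol reductase Ifi30 (-0.61, adjusted p = 0.0901), which opens disulfide bonds of antigens, were lower in all TG mice without passing. Ctsd (+0.47, adjusted p = 0.0802) and Ctsb (+0.38, adjusted p = 0.119), lysosomal proteases made by most cell types, were higher in all TG mice without passing. Cst3, a secreted cathepsin inhibitor, was 1142 ± 91.9 FPKM in TG and 1125 ± 94.0 FPKM in WT mice.

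Among the proteins that bind the X and Y boxes, 2 of 7 were called lower, beside 7.03% of all loci tested. Rfxap, a subunit of RFX, was 5.36, 6.37 and 5.28 FPKM in TG mice and 8.80, 8.56 and 10.8 FPKM in WT mice (log2 fold change -0.64, limma adjusted p = 0.0113). Nfya, a subunit of NF-Y, fell by 0.36 on the log2 scale (adjusted p = 0.0258). The NF-Y subunit Nfyb (-0.16, adjusted p = 0.162) and Creb1 (-0.18, adjusted p = 0.267) were not called. The third NF-Y subunit, Nfyc, was higher in all TG mice (+0.38, adjusted p = 0.0548), and the remaining RFX subunits had log2 fold changes of -0.22 (Rfx5, adjusted p = 0.156) and +0.11 (Rfxank, adjusted p = 0.648).

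Interferon-γ induces Ciita through a receptor, kinases and transcription factors that include Irf1. Ifng itself was 0.159 to 0.591 FPKM in the 6 mice, below the filter. Of the 8 tested genes of this arm, Irf2, a factor that binds the same element as Irf1, was called lower, at 26.4 ± 2.12 FPKM in TG and 36.0 ± 1.97 FPKM in WT mice (log2 fold change -0.44, limma adjusted p = 0.0171). Ifngr1, the ligand-binding receptor chain, was lower in all TG mice without passing (-0.40, adjusted p = 0.0505). Irf1 stood at -0.13 (adjusted p = 0.548). Irf8, a factor of myeloid and B cells, had the largest change of the arm, -0.61 (adjusted p = 0.0865).

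None of the 7 genes for turnover and costimulation was called, and 5 had an unadjusted limma p under 0.05. The largest change was in Cd83, which limits removal of class II from the surface, at -0.69 on the log2 scale (adjusted p = 0.0529). The ubiquitin ligase March1, which removes class II from the surface, stood at -0.50 (log2, adjusted p = 0.129) and its relative March8 one of +0.02. Cd86 (-0.57, adjusted p = 0.0782) and Cd40 (-0.55, adjusted p = 0.0777) are costimulatory proteins of the same cells.

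**Figure D2:**
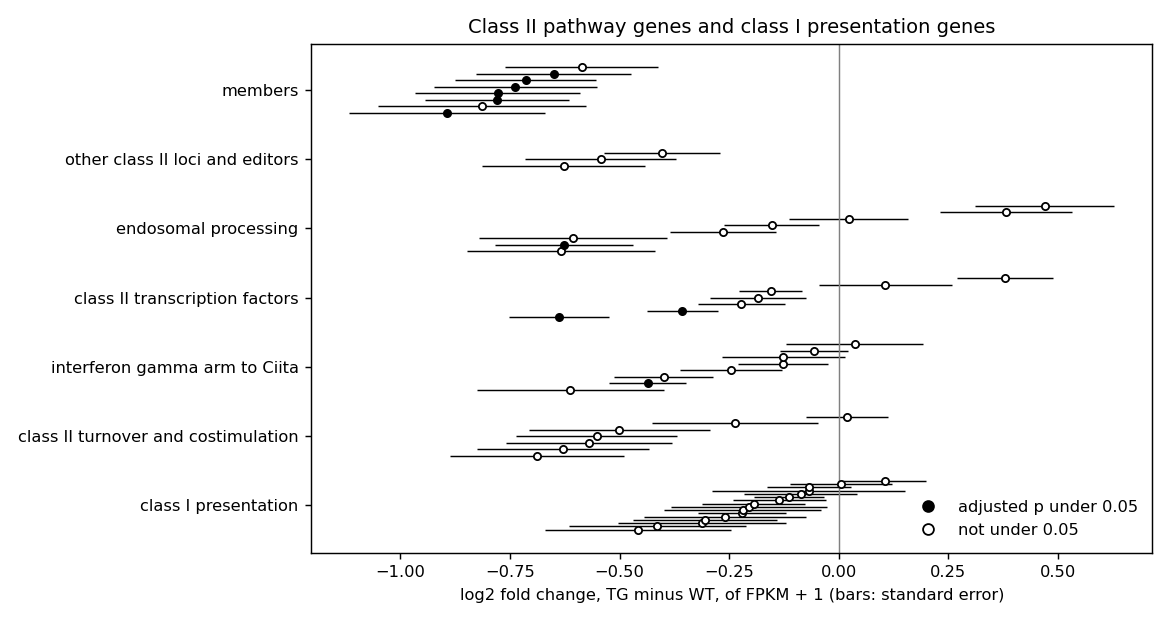
Log2 fold change (TG minus WT, x axis) of every tested gene of the class II lists and of class I presentation, with its standard error; filled points passed the limma test, and the row shared by H2-DMb1 and H2-DMb2 is drawn once. All 8 members lie between -0.89 and -0.59, while endosomal processing runs from -0.63 to 0.47.

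Class I molecules present peptides from inside the cell and, unlike class II, are made by almost all nucleated cells. Of 16 class I presentation genes tested, 0 were called by limma, beside 7.03% of all loci called lower and 11.6% called higher. None had an unadjusted p under 0.05. Even so, 14 of the 16 had a log2 fold change below 0, and their median was -0.20. Without transgenic mouse 2, 2 were called lower and 6 were lower at an unadjusted p under 0.05, and with wild-type mouse 3 also left out these counts were 1 and 8. The 3 most abundant were B2m (-0.31, adjusted p = 0.281), H2-K1 (-0.22, adjusted p = 0.410) and H2-D1 (-0.46, adjusted p = 0.167). For the 6 class II genes with a row of their own, the mean log2 level was compared with that of the class I genes. The difference was 0.35, 0.40 and 0.64 in WT mice and -0.17, 0.05 and -0.08 in TG mice, groups that did not overlap.

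The markers of antigen-presenting cells were read from 3 lists. Over all loci tested, 7.03% were called lower, and in 20.1% all TG mice lay below all WT mice. Of 12 B cell markers, 7 were called lower, their median of -0.76 (log2) was close to that of the members, and 10 did not overlap between genotypes. The 7 called were Faim3 (-0.96), Fcer2a (-0.93), Spib (-0.91), Cr2 (-0.80), Ms4a1 (-0.76), Cd22 (-0.75) and Pax5 (-0.67). Of 11 macrophage markers, 6 were called lower with a median of -0.60, namely the lysozyme gene Lyz2 (from 653 ± 88.1 to 308 ± 66.6 FPKM), Cd68 (-0.86), Mertk (-0.84), Csf1r (-0.75), Cd163 (-0.55) and Emr1 (-0.41). Of 11 dendritic cell markers, Cd209a was called (-0.82) and the median was -0.27, while Zbtb46 (+0.25, adjusted p = 0.126) and the row shared by Xcr1 and Fyco1 (+0.19, adjusted p = 0.151) were higher in all TG mice without passing.

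None of 10 genes made by leukocytes at large was called by limma, but 9 had an unadjusted p under 0.05 and their median was -0.50. None of 11 T cell markers was called, 1 had an unadjusted p under 0.05, and the median was -0.25. Of 6 lymph node genes, with a median of -0.60, the vessel addressin Madcam1 (-1.13) and the B cell chemokine Cxcl13 (-0.93) were called lower. Madcam1 was low, at 1.32 FPKM in TG and 4.10 FPKM in WT mice. Glycam1, the most abundant gene of that list, was 1841 to 3455 FPKM and overlapped between genotypes (-0.20, limma adjusted p = 0.589). Ccl19 was lower in all TG mice without passing (-0.72, adjusted p = 0.0753). Of 8 adipocyte genes, Retn (-2.02) and Adipoq (-0.85) were called lower. The adipocyte median was -0.08, with 4 genes below 0 and 4 above, and Fabp4 (+0.28, adjusted p = 0.531) was higher in all TG mice without passing. No marker of the B cell, macrophage, dendritic cell, T cell or general leukocyte lists was at 0 in any mouse. Summed FPKM ran over 339 to 431 in TG and 482 to 794 in WT mice for the B cell list, over 688 to 1017 and 1222 to 1668 for macrophages, over 125 to 161 and 143 to 179.9 for dendritic cells, and over 821 to 1330 and 1348 to 1724 for all leukocytes. The part of these cells in the class II result was not tested, and levels relative to their markers are given next.

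**Figure D3:**
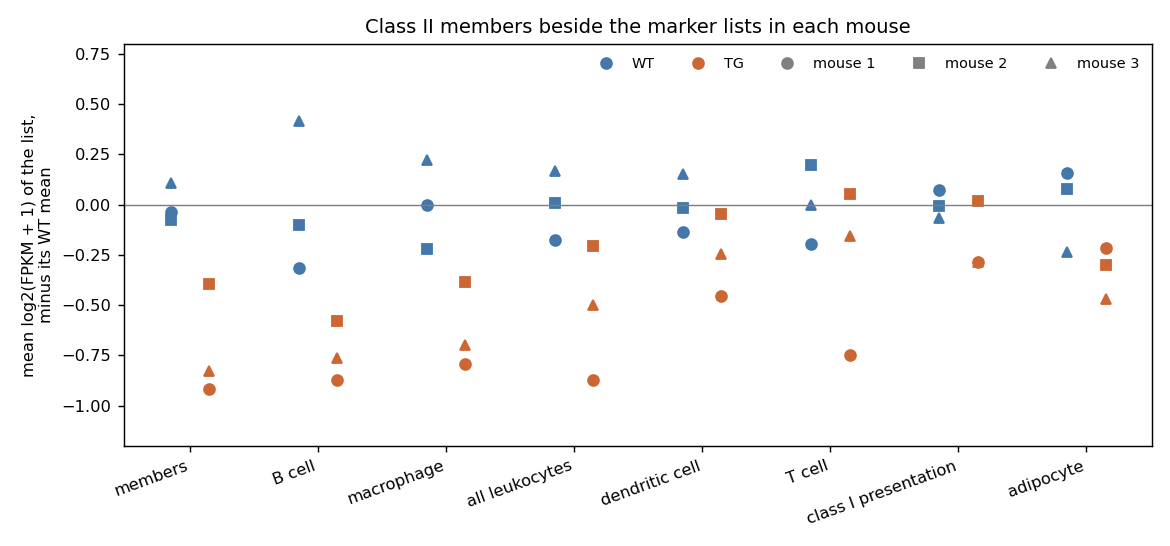
Mean log2(FPKM + 1) of each gene list in each mouse, minus the list's WT mean (y axis; blue WT, orange TG, shapes give the mouse number). The members (the 6 with a row of their own) and the B cell, macrophage and general leukocyte lists lie lower in all TG mice. Transgenic mouse 2 is the highest TG mouse in each of these lists.

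Measured against leukocyte transcripts, the class II difference was smaller. With each mouse scaled to its mean of the general leukocyte list, the median log2 fold change of the 6 genes was -0.20 and none was called, and 0 had an unadjusted limma p under 0.05. That scaling moved the median of all loci tested to 0.51. Scaled to the B cell list, the median of the 6 genes was 0.01 and the median of all loci 0.73. The 8 genes then split, with H2-Aa at 0.15, H2-Ab1 at 0.09 and H2-DMa at 0.02 above 0 and Cd74 at -0.16 as the lowest.

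Unscaled differences between the lists give the same measurement by mouse. They were taken for the 6 genes with a row of their own. The mean log2 level of these genes minus that of the B cell list was 2.54, 2.29 and 1.95 in WT mice. It was 2.21, 2.44 and 2.19 in TG mice, which overlapped with WT mice. Against the macrophage list it was 1.79, 1.96 and 1.71 in WT mice and 1.69, 1.81 and 1.69 in TG mice, which also overlapped. Against the dendritic cell list, by contrast, it was 3.90 ± 0.0864 (SD, n = 3) in WT mice and 3.44 ± 0.116 in TG mice, and every TG mouse lay below every WT mouse. Several markers of that list were low, such as Itgax at 3.10 and Clec9a at 3.06 FPKM in WT mice. At such levels adding 1 understates a change, and its part in this contrast was not tested. Nor was the lower value particular to the dendritic cell list. Against the T cell list it was 2.64 ± 0.237 in WT mice and 2.21 ± 0.251 in TG mice, which overlapped. The TG minus WT difference was -0.43 for the T cell list and -0.46 for the dendritic cell list.

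**Figure D4:**
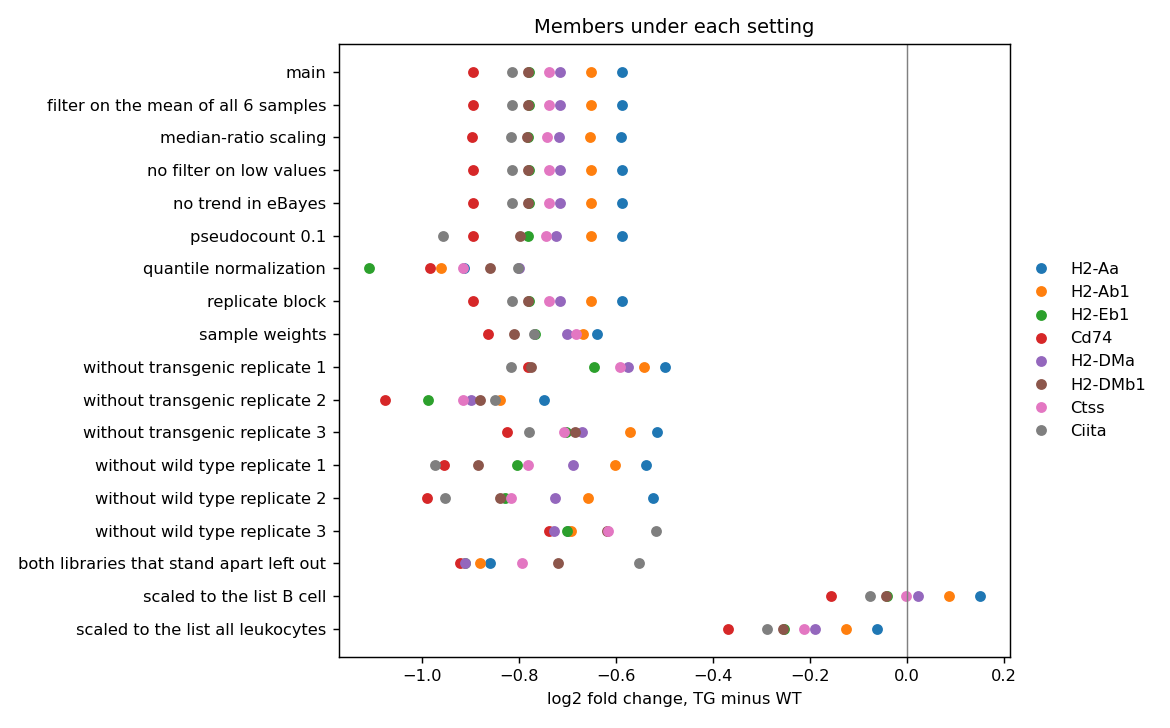
Log2 fold change of each of the 8 genes (x axis, TG minus WT; colours give the gene) under each way of processing the table (y axis; main is the fit reported here). Values stay below 0 except after scaling to the B cell list, where H2-Aa, H2-Ab1 and H2-DMa lie above 0.

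Several ratios between class II genes set wild-type mouse 3 apart from the other 5 mice, but not all. These ratios were chosen after the values were seen and were not tested. H2-Aa was 0.170 times the FPKM of Cd74 in that mouse and 0.287 to 0.315 times in the other 5 mice of both genotypes. H2-Ab1 was 0.240 times Cd74 against 0.356 to 0.376, H2-DMa 0.0295 times against 0.0403 to 0.0434, and H2-Eb1 0.128 times against 0.149 to 0.160. Ctss, at 0.0595 times against 0.0636 to 0.0728, differed less, and the H2-DMb1 row, at 0.0232 times Cd74, lay within the other mice (0.0215 to 0.0284). H2-Eb1 relative to H2-Ab1 went the other way, at 0.533 against 0.400 to 0.425. Class I genes in the same region showed a similar order, with H2-K1 at 0.152 times B2m against 0.174 to 0.202 and H2-D1 at 0.133 times B2m against 0.141 to 0.198. Within the other 5 mice the ratio of H2-Ab1 to Cd74 stayed within 0.356 to 0.376 while Cd74 itself ran from 1083 to 2163 FPKM.

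**Figure D5:**
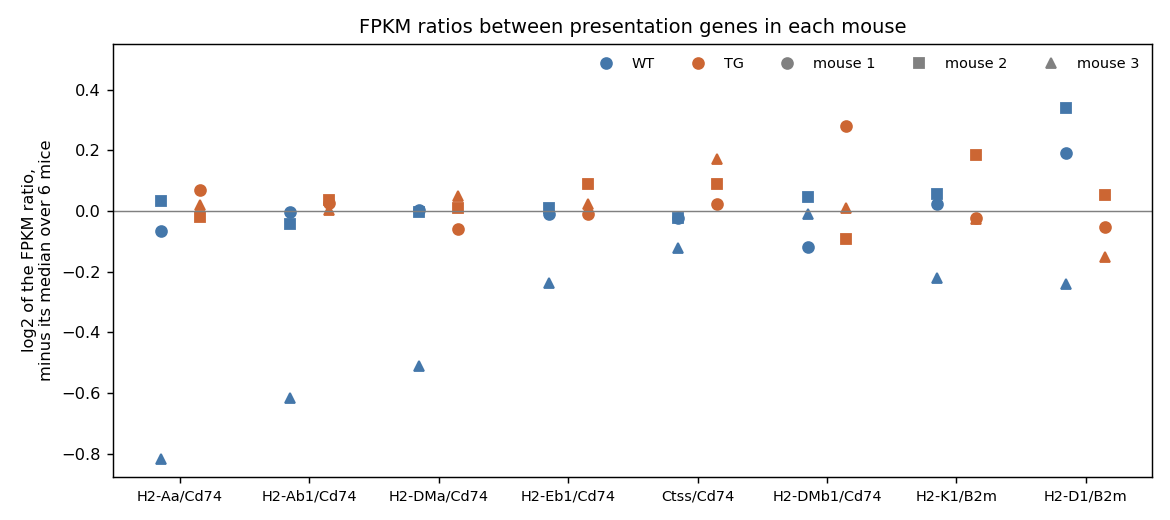
Log2 of the FPKM ratio between pairs of presentation genes in each mouse, minus the median over 6 mice (y axis; blue WT, orange TG, shapes give the mouse number). Wild-type mouse 3 has the lowest ratio in 7 of the 8 pairs drawn, all but H2-DMb1 over Cd74, and is lowest for H2-Aa over Cd74 at a ratio of 0.170.

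Outside all lists, the loci whose levels followed the class II genes most closely over the 6 mice were Sash1 (r = 0.998), Eid2 (r = 0.996), P2ry6 (r = 0.996), Calhm2 (r = 0.995) and Rab31 (r = 0.994). Likeness was Pearson's r over 6 samples to the mean z-score of the 6 genes with a row of their own. It was taken among 8253 loci with a mean FPKM over 5. Of these, 245 had r over 0.95, and the 6 samples fall into 2 genotypes, so the values are a description. P2ry6, a receptor for uridine diphosphate, was 4.34, 7.31 and 4.70 FPKM in TG mice and 8.99, 8.59 and 9.88 FPKM in WT mice, with the same high value in transgenic mouse 2.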

How the data were processed

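iWAT RNA was extracted with Trizol and made into TruSeq libraries, read from 1 end for 100 bases. The submitters' processing notes list CASAVA 1.8.2, TopHat2 2.0.9, Bowtie2 2.1.0 and Cufflinks 2.2.1 and the build mm10, and the options and the annotation are not given in the sources used here. The authors deposited 1 FPKM value for each locus and mouse, with overlapping genes merged in 1 locus under several symbols. The read depth is unknown, so no interval for counting error is given, and the number of mice limits the precision.

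From the deposited FPKM, log2(FPKM + 1) was taken for 11692 loci whose mean FPKM exceeded 1 in TG or WT mice, the study's own filter. Adding 1 understates the fold change of genes with low FPKM. TG and WT mice were compared by limma (version 3.58.1, R 4.3.3; empirical Bayes with an intensity trend and no covariates; two-sided), with Benjamini-Hochberg adjustment over all loci tested and a threshold of 0.05. The p-values set the difference between genotypes against the spread between 3 mice per genotype, with each variance moderated over all loci tested. The procedure was tested on simulated data. A symbol found only in a row of several symbols was read from that row, and the 2 such members were counted apart. The other lists hold 6 such symbols (Tapbp, Cd79a, Xcr1, Pnpla2, Tnnt3 and Krt14) within their counts. Of the listed symbols, Spi1, Adgre1 (read as Emr1) and Ccl21a were not found. Loci are printed as the table gives them. Promoters were taken from RefSeq (GRCm38.p6). The members and lists were chosen with earlier results of these data known.

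Named were all members, the called and the most changed genes of each class II list, the called and up to 3 most abundant genes of other lists, and the 5 loci most like the members. Epithelial and skeletal muscle markers were also read. Python 3.11.15 and matplotlib 3.10.9 drew the figures. The alternatives were another pseudocount, other filters, normalizations, variance models and scalings, a replicate block and leaving out mice.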

Additional observations from a re-analysis of the deposited data

How the results depend on the processing

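Over 16 other ways of processing and 1 chosen after the data were seen (both mice left out), all 8 members kept a negative log2 fold change except under scaling to the B cell list, where H2-Aa was 0.15, H2-Ab1 0.087, H2-DMa 0.023 and the median of the 6 members with a row of their own 0.011. The number of members called lower, 4 of 6, was 1 without the filter (more loci tested), 0 under leukocyte scaling, 0 under B cell scaling and 0 to 5 with 1 mouse left out. The median of -0.73 was -0.91 under quantile normalization, -0.20 under leukocyte scaling and -0.58 to -0.87 with 1 mouse left out. The other class II genes called, 4 of 33, were 7 under quantile normalization, 9 with sample weights, 0 under each scaling, and 1 to 9 with 1 mouse left out (1 without wild-type mouse 3 or transgenic mouse 3, 2 without transgenic mouse 1, 9 without transgenic mouse 2). Class I genes called, 0 of 16, were 1 under quantile normalization (6 at an unadjusted p under 0.05), 0 to 2 with 1 mouse left out (2 without transgenic mouse 2), and 1 with transgenic mouse 2 and wild-type mouse 3 both left out. Over all loci, 822 were called lower and 1352 higher, which became 90 and 3358 under leukocyte scaling, 70 and 6864 under B cell scaling, 326 and 621 with both mice left out, and 329 to 906 and 780 to 1295 with 1 mouse left out. The cause was not tested.

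With the replicate number as a block, 2 of the 6 members were called, H2-DMa and H2-Aa (limma adjusted p = 0.0436), and H2-Ab1, H2-Eb1, Ctss and both shared rows were no longer called (adjusted p = 0.0524 to 0.0611). The deviations of same-numbered mice correlated at 0.013, 0.034 and 0.070. With so few mice these values cannot settle whether same-numbered mice shared a litter or batch. Of the 9 pairs of 1 TG and 1 WT mouse, the highest correlation was 0.135, between different numbers.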

Other observations

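Epithelial markers had a median log2 fold change of -0.33, with 0 of 8 called by limma and 1 at an unadjusted p under 0.05. Skeletal muscle markers had a median of 2.18, with 0 of 8 called and 2 at an unadjusted p under 0.05, and the TG and WT mice overlapped.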
